A study of Rattus norvegicus with 12 samples.

Results

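Cultured ventricular cardiomyocytes from newborn Wistar rats that had been given an adenovirus for the γ+ form of MEF2C (the γ+ group) were compared with untreated cultures of the same cells (the control). The comparison used 3 arrays of each, 6 of the 12 arrays of the study, chosen by their titles. The features were all probe sets that a probe table pairs with a single gene symbol, 15209 of 28826, which stand for 14497 genes. After probe sets of low level were left out, 10025 of these genes were tested.

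MEF2C is a transcription factor that binds A/T-rich sites in the promoters and enhancers of muscle genes and is needed for heart development. Alternative splicing includes or leaves out its γ segment, which is known to repress transcription. In the newborn heart, cardiomyocytes still assemble their contractile apparatus while they leave the cell cycle.

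The study also holds 3 arrays of cultures given the form without the segment (mef2Cγ-, the γ- group) and 3 of a γ+ variant that the labels name mef2Cγ+23/24 without saying what it is (the 23/24 group). All cultures spent 44 h in plating medium with serum and 24 h in serum-free medium. Labelling used 2 µg of total RNA. The labels give neither the dose of virus nor the time from transduction to harvest, and no virus without an insert is among the groups. Mef2c itself has no probe set with its symbol, so the transgene and the native gene were not analysed here. The arrays are numbered as biological replicates, but nothing in the labels says that they came from separate cell preparations. The p-values then reflect only how far these samples spread, which may be technical.

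Array values are given throughout as deposited, taken as log2 of probe intensity, so that a difference of 1 is a doubling. Levels of different genes are not compared, because each probe set has its own brightness. The array medians were 5.41, 5.41 and 5.46 in the control and 5.34, 5.36 and 5.33 in the γ+ group. Between arrays of the same group, the standard deviation of the difference over genes was 0.216 to 0.272 in the control and 0.200 to 0.293 in the γ+ group. Replicate 2 was the γ+ array farther from the other two, which differed from each other by 0.200. Exactly equal values were found in 21 of 21 array pairs within the control and 23/24 groups together, within the γ+ group or within the γ- group, and in 0 of 45 pairs across these sets, so the γ+ arrays appear to have been normalized apart from the control arrays. The labels name no such run, and the sets were drawn from the equal values themselves. Treatment and this apparent processing run cannot be told apart.

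The γ+ cultures differed from the control over most of the measured genes. At an adjusted p under 0.05 by limma with Benjamini-Hochberg adjustment (genes "called" below), 6509 of 10025 genes differed, 64.9% of those tested. Of these, 2631 were higher in the γ+ group (26.2%) and 3878 were lower (38.7%). The 3 arrays of each group did not overlap for 6675 genes, or 66.6%. These shares are the background against which every gene group below has to be read. The balance of directions depends on how the arrays are scaled: 40.4% of the calls were higher as deposited, 51.2% after the array medians were set equal and 48.0% after quantile normalization. Of the 6509 calls, 5672 were made again in the same direction after median centring and 6028 after quantile normalization, and 0 were called in the opposite direction under either.

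Large differences were fewer and leaned downward. A called difference of at least 1 log2 was seen for 311 genes that were higher and 596 that were lower, and one of at least 2 log2 for 29 and 57. Genes were tested where their mean over the 12 arrays exceeded log2 4.78. Of the 3878 that fell, 266 had a γ+ mean at or below that level, and of the 2631 that rose, 7 had means at or below it in all 3 other groups, so they passed only through the groups where they are high. Some members of the gene groups below are among them. Genes that were bright in the control fell most often. When the genes were cut into 4 equal sets by control level, the highest set (8.46 to 13.82) had 52.0% lower and 22.1% higher, and the 5th to 95th percentiles of the difference ran from -1.38 to 0.57. In the lowest set (4.47 to 6.11), 29.6% were lower and 21.1% higher, with percentiles of -0.80 and 0.82. The γ- group, set against the same control, had percentiles of -0.19 and 0.18 in the highest set.

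**Figure D1:**
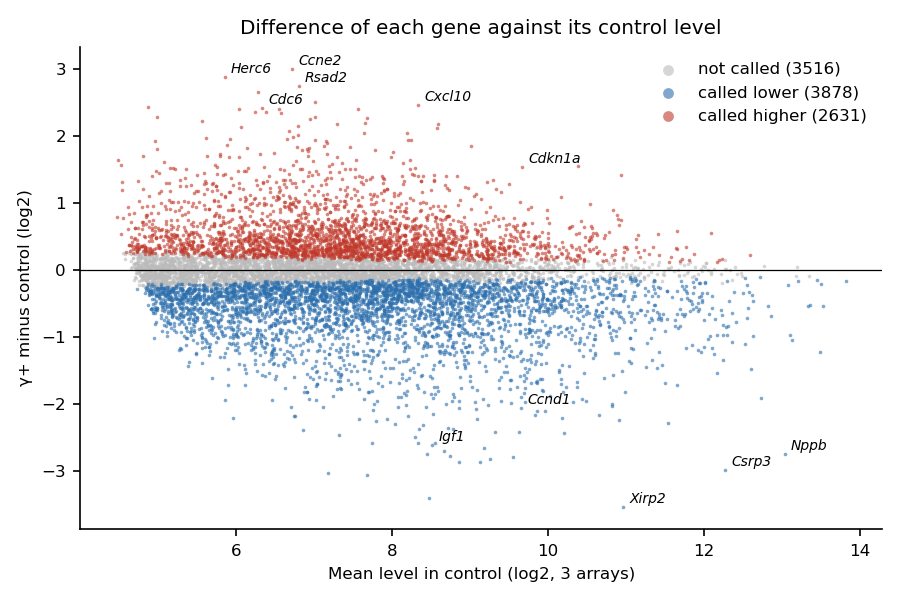
Difference between the γ+ and control group means (y axis, log2) against the mean control level (x axis, log2), 1 point per gene for the 10025 genes tested, coloured by call. Genes with high control levels spread farther below 0 than above it, and the largest falls include Xirp2 and Csrp3.

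The largest rise was that of Ccne2. This gene for cyclin E2, which drives entry into S phase, read 6.73, 6.63 and 6.79 in the control arrays and 9.78, 9.65 and 9.70 in the γ+ arrays. Herc6, an interferon-induced ubiquitin-ligase family member, read 5.84, 5.70 and 6.01 against 8.77, 8.71 and 8.71. Psrc1, a microtubule-associated protein of the mitotic spindle, read 6.27, 6.26 and 6.32 against 8.95, 8.84 and 9.00. For each of these every γ+ array lay more than 2 log2 above every control array, and the limma adjusted p was 7.42e-15 for Ccne2, 3.49e-14 for Herc6 and 5.99e-14 for Psrc1. Among the 15 largest rises were also Cd80, Cxcl10, Cdc6, Dck, E2f7, Ifit1 and Gbp5, described with their groups below, and the adhesion protein Amigo2 (2.43 ± 0.10, SE, n = 3 per group), the DNA damage-induced apoptosis suppressor Ddias (2.40 ± 0.07), Rtp3 (2.40 ± 0.11) and the imprinted gene Nnat (2.34 ± 0.11). Nnat was the noisiest of these 4, at 6.49, 6.44 and 6.78 in the control and 8.85, 9.20 and 8.66 in the γ+ group. Each SE, here and below, comes from the limma fit to all 4 groups, so it is not the spread of the compared arrays alone.

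Xirp2, described with the Z-disc below, had the largest fall, followed by Scn3b. Scn3b, a β subunit of the cardiac sodium channel, read 8.51, 8.51 and 8.40 in the control and 5.02, 5.12 and 5.06 in the γ+ arrays. Itgb1bp2, the muscle integrin-binding chaperone melusin, read 9.59, 9.57 and 9.50 against 6.75, 6.64 and 6.88. For both the γ+ arrays were far below the control arrays, with differences of -3.41 ± 0.06 for Scn3b and -2.80 ± 0.06 for Itgb1bp2 (SE, n = 3 per group). The difference was -2.87 ± 0.10 for Ackr3, an atypical receptor for the chemokine CXCL12, and -2.78 ± 0.08 for Pla2g5, a secreted phospholipase. It was -2.74 ± 0.08 for the matricellular protein Ccn5 and -2.65 ± 0.07 for the WNT-binding protein Sfrp2. Bmp10, a growth factor made by the developing heart, read 7.20, 7.16 and 7.18 in the control and 4.19, 4.28 and 3.98 in the γ+ arrays. B3galt2, a galactosyltransferase, read 7.70, 7.58 and 7.75 against 4.28, 4.88 and 4.71. Their γ+ means lay below the low-level limit of 4.78 that decided which genes were tested, so the sizes of these 2 falls, and their ranks, are not well measured.

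**Figure D2:**
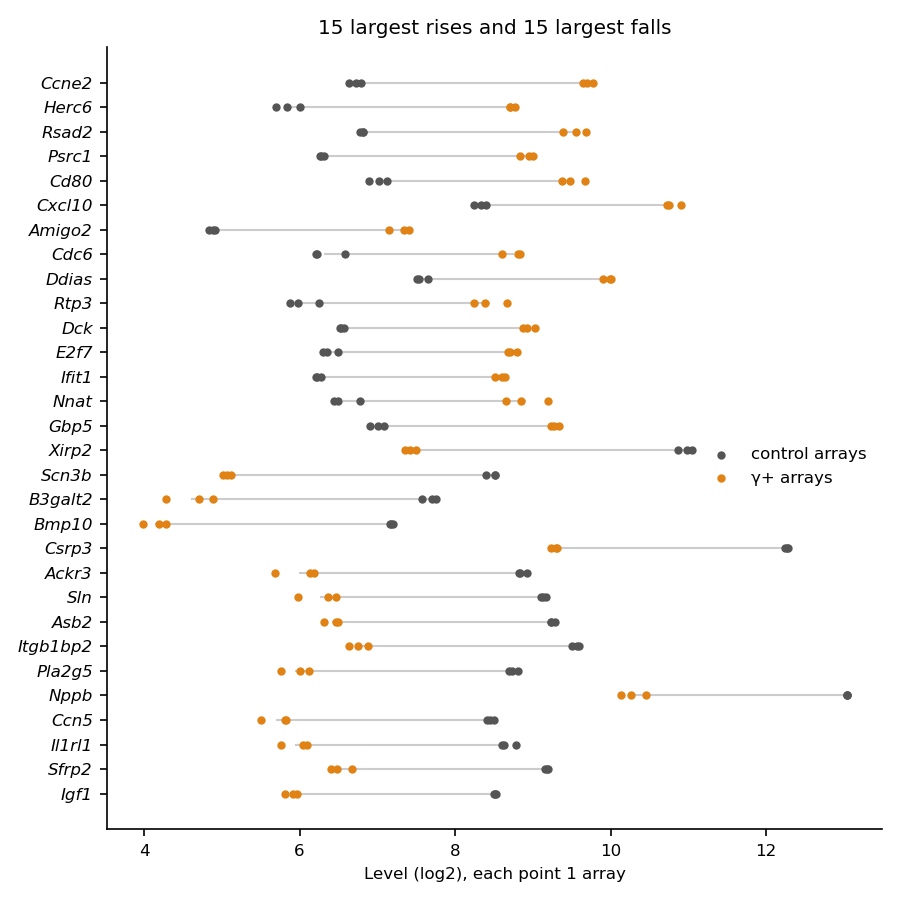
Array values (log2, x axis) of the 15 genes with the largest rises and the 15 with the largest falls, 1 row per gene and 1 point per array for the 3 control and 3 γ+ arrays. In each row the control and γ+ points form separate clusters, which the choice of genes required.

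The cultures carried RNA of several cell types, and markers of nearly all of them were lower in the γ+ group. All 8 tested cardiomyocyte markers fell, and the log2 of their summed level was 15.24 to 15.28 over the control arrays and 14.37 to 14.39 over the γ+ arrays. All 10 fibroblast markers fell, from a sum of 13.05 to 13.08 to one of 11.63 to 11.73. The 10 smooth muscle or pericyte markers, the 9 tested endothelial markers and the 6 tested epicardial or mesothelial markers fell without exception. Their sums went from 14.62 to 14.70 to 13.77 to 13.81 for smooth muscle or pericyte, from 9.51 to 9.56 to 8.68 to 8.82 for endothelial, and from 10.01 to 10.09 to 8.68 to 8.83 for epicardial or mesothelial markers. A sum is set largely by its brightest markers, which for smooth muscle or pericyte were Acta2 (control mean 13.52) and Des (12.61). Des is also counted with the Z-disc below, and other markers recur in the gene groups below too. The γ+ means of Notch3 (smooth muscle or pericyte, 4.77) and Sox18 (endothelial, 4.40) lay below the low-level limit of 4.78. Of 7 macrophage or leukocyte markers 5 fell and 2 were not called (sums 9.76 to 9.81 against 9.22 to 9.34), and of 2 Schwann or neuronal markers 1 fell (6.82 to 6.90 against 6.49 to 6.60). Neither of the 2 erythroid markers was called (6.06 to 6.24 against 6.26 to 6.49).

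Single markers show the same. Msln, the mesothelial surface protein mesothelin, read 8.42, 8.40 and 8.39 in the control and 5.99, 6.02 and 6.24 in the γ+ arrays. Pdgfra, the receptor that marks cardiac fibroblasts, read 7.76, 7.83 and 7.88 against 6.61, 6.70 and 6.40. Tie1, an endothelial receptor, read 7.13, 7.14 and 7.10 against 5.96, 5.74 and 6.03. The γ+ and control arrays were apart for all of them, and limma gave adjusted p = 2.2e-13 for Msln, 5.02e-10 for Pdgfra and 8.54e-10 for Tie1. In such bulk samples, fewer cells of a type and less of its RNA per cell cannot be told apart. The part of these marker shifts in the results below was not tested.

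The contractile apparatus was lower as a whole. Muscle contracts when thick filaments of myosin pull on thin filaments of actin that are anchored at the Z-disc and carry the troponin switch for calcium. Of 19 tested Z-disc genes 18 fell and 1 was not called (median difference -1.26), all 16 thin-filament genes fell (median -0.91), and all 13 genes of the thick filament and M-band fell (median -1.27). The median over all genes tested was -0.07. Of the 16 thin-filament genes that fell, 2 had γ+ means at or below the low-level limit of 4.78.

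Xirp2, an actin-binding protein of the Z-disc and intercalated disc, had the lowest difference among the 10025 genes tested. It read 10.87, 11.05 and 10.98 in the control and 7.50, 7.42 and 7.35 in the γ+ arrays. Csrp3, the LIM-domain protein MLP that anchors at the Z-disc, read 12.27, 12.29 and 12.25 against 9.30, 9.24 and 9.31. Cavin4, a caveolar protein of muscle, read 8.12, 8.02 and 7.96 against 5.76, 5.57 and 5.89. The groups were far apart for all of these, with differences of -3.54 ± 0.06 for Xirp2, -2.99 ± 0.04 for Csrp3 and -2.30 ± 0.08 for Cavin4 (SE, n = 3 per group). Ankrd1, a titin-bound stress-response protein, fell by 1.91 ± 0.05, and Ldb3 and Actn2, which hold the Z-disc together, differed by -1.61 and -1.26.

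Members of the thin and thick filaments fell to very different degrees. Tnni3, the adult cardiac troponin I, read 10.67, 10.67 and 10.64 in the control and 8.51, 8.54 and 8.45 in the γ+ arrays. Tnni1, the troponin I of the fetal heart, read 10.98, 10.96 and 10.89 against 9.58, 9.25 and 9.47. Both troponin I forms were thus lower, with differences of -2.16 ± 0.05 and -1.51 ± 0.07 (SE, n = 3 per group). The fall was smaller for Tnnt2, which encodes cardiac troponin T (-0.57), and for the tropomyosin gene Tpm1 (-0.63). Hspb7, a heat shock protein of the thin filament, read 10.96, 10.93 and 10.84 against 8.62, 8.75 and 8.64. It was counted above with the genes of the thick filament and M-band. Among thick-filament and M-band genes, Myom1 (myomesin, -1.99), the myosin-folding methyltransferase Smyd1 (-1.98) and the atrial light chain Myl7 (-1.75) fell more than Ttn (titin, -0.78) and the ventricular light chain Myl3 (-0.53).

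Genes of the membrane around the contractile apparatus fell with it. All 10 tested genes of the dystrophin complex and costamere, which link the cytoskeleton to the matrix, were lower (median -1.10). Dmd, which encodes dystrophin, read 9.62, 9.57 and 9.61 in the control and 8.30, 8.35 and 8.31 in the γ+ arrays. Sspn, the complex member sarcospan, read 9.08, 9.04 and 9.14 against 7.39, 7.05 and 7.43. Neither gene's γ+ arrays came within 1 log2 of its control arrays, and the differences were -1.28 ± 0.05 for Dmd and -1.80 ± 0.08 for Sspn (SE, n = 3 per group). Utrn, the dystrophin relative utrophin, differed by only -0.15. Of 13 intercalated disc and gap junction genes, which couple neighbouring cardiomyocytes, 12 fell and 1 rose (median -0.57). Gja1, the main ventricular connexin, read 10.66, 10.66 and 10.51 against 9.30, 9.38 and 9.33. The riser was Ctnnb1, which encodes β-catenin, with 9.64, 9.71 and 9.61 against 10.19, 10.00 and 10.20 (adjusted p = 2.14e-06), while its partner Ctnna1 (α-catenin) differed by -1.34.

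Promoter stretches are shown for the 3 genes of the contractile lists with the largest falls among those whose promoter window held a MEF2 motif. Windows ran from 250 bases before to 50 after each gene's RefSeq start in the GRCr8 build and were searched on both strands for the A/T-rich MEF2 consensus. Each stretch is written 5′ to 3′ on the gene's strand, and capitals mark the match.
Xirp2: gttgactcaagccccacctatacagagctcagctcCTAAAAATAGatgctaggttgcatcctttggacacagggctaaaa
Hspb7: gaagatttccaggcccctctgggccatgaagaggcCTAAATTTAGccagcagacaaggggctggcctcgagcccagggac
Cav3: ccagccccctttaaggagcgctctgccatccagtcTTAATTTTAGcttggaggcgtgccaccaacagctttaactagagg
The Xirp2 stretch is chr3:72534077-72534156 on the plus strand, with the match at bases -74 to -65 from the start. The Hspb7 stretch is chr5:159010628-159010707 on the plus strand, with the match at -96 to -87. The Cav3 stretch is chr4:147137880-147137959 on the plus strand, with the match at -78 to -69, and this gene for the muscle caveolin fell by 1.36 log2. Of the 57 contractile genes with a window, 8 held this motif (14%), against 1.41% of the windows of all genes tested and 3.29% of all 33469 windows. A match describes the letters only and shows no binding.

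Excitation and calcium cycling genes were mostly lower, with several exceptions among ion channels. Each beat starts with sodium and calcium entry, releases stored calcium through the ryanodine receptor and ends with potassium efflux and calcium reuptake. Of 25 genes of calcium release and reuptake, 18 fell, 2 rose and 5 were not called (median -0.82). Sln, which encodes the pump inhibitor sarcolipin, read 9.10, 9.17 and 9.13 in the control and 6.47, 5.98 and 6.36 in the γ+ arrays. Ryr2, the release channel, read 10.00, 10.04 and 10.03 against 8.12, 8.15 and 8.13. These groups did not overlap, and the difference was -2.86 ± 0.10 for Sln and -1.89 ± 0.05 for Ryr2 (SE, n = 3 per group). The T-type calcium channel gene Cacna1g differed by -1.80. The 2 risers were Mcu, the mitochondrial calcium uniporter (0.37), and Fkbp1b, a ryanodine receptor-binding protein (0.29).

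Potassium channel genes split: 13 of 20 fell, 3 rose and 4 were not called (median -0.67). Kcnq1, the pore of the slow delayed rectifier, read 8.14, 8.29 and 8.11 in the control and 6.19, 6.11 and 6.19 in the γ+ arrays. Kcnd2, a pore of the transient outward current, went the other way, from 4.74, 4.69 and 4.99 to 6.52, 6.32 and 6.65. The differences were -2.02 ± 0.06 for Kcnq1, -1.71 ± 0.07 for Kcnk3, a background channel, and 1.69 ± 0.13 for Kcnd2 (SE, n = 3 per group; limma adjusted p = 2.3e-13, 5.76e-12 and 7.53e-09). Of 10 genes of sodium channels, pacemaker channels and the sodium pump 5 fell and 3 rose (median -0.27). Besides Scn3b, the pump subunit Atp1b1 (-1.72) and the pacemaker channel Hcn4 (-0.75) fell, and the sodium channel modulator Fgf12 rose (0.57).

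Receptor and second-messenger genes fell in 21 of 30 cases and rose in 6 (median -0.49). Adra1a, the α1A-adrenergic receptor, read 8.06, 7.80 and 7.94 in the control and 5.84, 5.49 and 5.80 in the γ+ arrays. Agtr1a, the type 1 angiotensin receptor, read 6.96, 6.96 and 6.88 against 4.87, 5.01 and 5.13. Gnao1, which encodes the G protein subunit αo, read 10.31, 10.13 and 10.18 against 7.65, 8.17 and 7.46. All of these γ+ values lay well below the control values, although replicate 2 sat above the other γ+ arrays for Gnao1 (difference -2.44, and -2.65 without it). Pde5a, the phosphodiesterase that degrades cyclic GMP, rose from 5.68, 5.82 and 5.56 to 7.07, 6.86 and 6.99. Its difference was 1.28 ± 0.10 (SE, n = 3 per group; adjusted p = 9.37e-09).

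The natriuretic peptide system, through which the stressed heart signals to kidney and vessels, had 7 of 9 genes lower and 2 not called (median -0.37). Nppb, which encodes brain natriuretic peptide, read 13.04, 13.04 and 13.04 in the control and 10.46, 10.13 and 10.27 in the γ+ arrays. Nppa, which encodes atrial natriuretic peptide, read 13.37, 13.39 and 13.30 against 12.88, 12.73 and 12.89. Npr3, the clearance receptor, read 7.67, 7.68 and 7.90 against 5.81, 5.34 and 5.80. All fell without overlap, and the difference was -2.75 for Nppb, -2.10 for Npr3 and only -0.52 for Nppa. Of 13 genes of calcineurin, NFAT and class IIa deacetylases, the calcium-dependent regulators that act on MEF2 and NFAT, 8 were not called, 4 fell and 1 rose (2 after either rescaling of the arrays). Rcan1, a calcineurin inhibitor that is itself induced by calcineurin, read 10.19, 10.20 and 10.15 against 7.98, 7.91 and 8.01. Nfatc3, an NFAT factor, rose from 7.80, 7.78 and 7.81 to 8.55, 8.51 and 8.55.

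Most cardiac transcription factors were lower. Of 27 tested, 16 fell, 3 rose and 8 were not called (median -0.37). Gata4, a core cardiac factor, read 10.14, 10.12 and 10.09 in the control and 9.52, 9.59 and 9.56 in the γ+ arrays. Nkx2-5, the cardiac homeobox factor, read 9.60, 9.55 and 9.70 against 9.46, 9.57 and 9.50. The Nkx2-5 arrays of the groups overlapped and the gene was not called (difference -0.11 ± 0.07, SE; adjusted p = 0.168), nor was Tbx5, whereas Gata4 fell by 0.56. Hopx, a homeobox-like cofactor, read 8.08, 8.07 and 8.10 against 5.98, 6.09 and 6.02. Myocd, the coactivator myocardin, differed by -1.39 and Gata6 by 0.38.

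The other MEF2 genes were measured even though Mef2c was not. Mef2a read 10.29, 10.30 and 10.33 in the control and 9.76, 9.84 and 9.77 in the γ+ arrays. Mef2d read 9.71, 9.57 and 9.60 against 8.76, 9.47 and 8.79. Mef2b, a member near the low end of the measured range, read 4.72, 4.74 and 4.91 against 5.71, 5.85 and 5.61. Mef2a and Mef2d were thus lower (-0.52 ± 0.05 and -0.62 ± 0.13, SE, n = 3 per group) and Mef2b higher (0.94 ± 0.13). Replicate 2 stood near the control for Mef2d, whose difference was -0.85 without that array. The SE of 0.13 draws on all groups, while the standard deviation of Mef2d was 0.07 in the control and 0.4 in the γ+ arrays.

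Regulators of muscle splicing moved in both directions, with 5 of 15 higher (33.3%), 7 lower (46.7%) and 3 not called (median 0.02). These shares were not far from those of all genes tested (26.2% higher and 38.7% lower). Ptbp2, a repressor of tissue-specific exons, read 8.22, 8.38 and 8.19 in the control and 9.33, 9.16 and 9.41 in the γ+ arrays. Rbfox1, which promotes muscle and neuronal exons, read 6.29, 6.40 and 6.30 against 4.80, 4.68 and 4.82, a γ+ mean of 4.77, just below the low-level limit. Rbm20, which controls the splicing of titin, read 8.13, 8.18 and 7.95 against 7.38, 7.20 and 7.34. The rise was 1.04 ± 0.08 for Ptbp2 (SE, n = 3 per group), and its relative Ptbp1 rose by 0.70. The muscle kinase Srpk3, which phosphorylates splicing factors, differed by -0.87, and Srpk3 is also known as a MEF2 target.

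Most genes that feed and run the tricarboxylic acid cycle were lower. Of 31 genes of the tricarboxylic acid cycle and pyruvate metabolism 25 fell and 3 rose (median -0.62). Mpc1, a subunit of the pyruvate carrier, read 8.81, 8.98 and 8.95 in the control and 7.98, 7.52 and 7.97 in the γ+ arrays. Its partner Mpc2 differed by -1.07, the pyruvate dehydrogenase kinase Pdk2 by -1.28 and citrate synthase, Cs, by -0.78. Pc, the pyruvate carboxylase that refills the cycle, was among the risers (0.45). Of 26 genes of respiratory chain assembly and mitochondrial DNA, 11 were not called, 8 fell (30.8%) and 7 rose (26.9%). Of all genes tested 38.7% fell and 26.2% rose. The median of these 26 genes was -0.08, and 5 of them fell after median centring or without γ+ replicate 2. Tfam, which packages and transcribes mitochondrial DNA, read 7.42, 7.43 and 7.18 against 7.97, 7.79 and 7.95. Sco1 (0.63), a copper chaperone of cytochrome oxidase, rose, and Cox17 (-0.69), which hands it copper, fell.

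Mitochondrial ribosomal proteins fell about as often as the genes at large but rose less often. Of 66, 27 fell (40.9%, against 38.7% of all genes tested) and 9 rose (13.6%, against 26.2%). The other 30 were not called, and the median was -0.12. Carriers of the SLC25 family, which move metabolites across the inner membrane, fell in 18 of 33 cases and rose in 9 (median -0.20). These are shares of 54.5% and 27.3%, and the share that rose was near that of all genes tested. Slc25a10, the dicarboxylate carrier, rose from 8.93, 9.00 and 8.99 to 10.20, 10.21 and 10.18. The phosphate carrier Slc25a3 differed by -1.02 and the calcium-dependent ATP carrier Slc25a23 by -1.30. The Slc25a10 groups did not overlap, and its adjusted p was 2.67e-10.

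Glucose, glycogen and energy-buffer genes fell. Of 24 genes of glucose uptake, glycogen and lactate handling 19 were lower and 1 higher (median -0.40). Pygm, the muscle glycogen phosphorylase, read 10.87, 10.83 and 10.75 in the control and 8.76, 8.75 and 8.87 in the γ+ arrays. Eno3, the muscle enolase, differed by -1.81, the glycogen synthase Gys1 by -1.16 and the insulin-regulated glucose transporter Slc2a4 by -0.98. Of 9 genes for phosphocreatine, adenylate and oxygen buffering 7 fell and 2 rose (median -0.67). Ckm, the muscle creatine kinase, read 9.74, 9.68 and 9.55 against 7.84, 7.67 and 7.76. Ak4, a mitochondrial adenylate kinase, rose from 4.94, 4.96 and 4.85, close to the low-level limit, to 6.39, 6.42 and 6.12. Both Ckm (-1.90 ± 0.06, SE) and Ak4 (1.39 ± 0.11) were apart from the control on every array.

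Nuclear receptors and coactivators that set mitochondrial capacity fell in 13 of 21 cases and rose in 4 (median -0.34). Ppara, the fatty acid-sensing receptor, read 7.40, 7.28 and 7.34 in the control and 5.72, 5.91 and 5.72 in the γ+ arrays. Ppargc1b, the coactivator PGC-1β, read 8.24, 8.22 and 8.24 against 6.76, 6.85 and 6.59. Of the 13 that fell, 3 had γ+ means at or below the low-level limit, among them Perm1, a muscle regulator downstream of PGC-1 (5.56 against 4.17). Gabpa (0.62) and Nrf1 (0.53), which activate nuclear genes for the respiratory chain, rose.

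Genes of DNA replication and mitosis rose almost as a block. To replicate, a cell loads the MCM helicase onto origins with the help of CDC6 and CDT1, fires it through cyclin E and CDK2, and supplies nucleotides; E2F factors switch these genes on when the retinoblastoma proteins release them. Of 23 genes of origin licensing and the helicase, 20 rose, 1 fell and 2 were not called (median 1.38). Of 35 genes of DNA synthesis and nucleotide supply, 33 rose and 2 were not called (median 1.21). Of 49 genes of the spindle, kinetochore and cytokinesis, 48 rose (median 1.18), and the remaining member, Cit, differed by -0.18 and was not called after either rescaling. Against this stand 26.2% of all genes tested that rose.

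Cdc6 read 6.58, 6.22 and 6.21 in the control and 8.84, 8.60 and 8.81 in the γ+ arrays. Cdt1 read 5.43, 5.77 and 5.51 against 7.87, 7.71 and 7.79. Mcm5, a helicase subunit, read 8.27, 8.18 and 8.11 against 10.20, 10.23 and 10.25. For each of these licensing genes the γ+ arrays were at least 1.9 log2 above the control arrays. Dck, the kinase that salvages deoxycytidine, read 6.53, 6.57 and 6.52 against 8.87, 8.92 and 9.03. Clspn, the fork checkpoint adaptor claspin, read 5.89, 5.97 and 5.89 against 7.87, 7.91 and 7.82. The thymidylate synthase Tyms (1.85) and the sliding clamp Pcna (1.41) rose with them. Orc3, a subunit of the origin recognition complex, was the licensing gene that fell (-0.39).

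Mitotic genes rose by similar amounts. Cenpk, a kinetochore protein, read 6.22, 6.12 and 5.84 in the control and 8.14, 8.33 and 8.12 in the γ+ arrays. Ska3, which couples kinetochores to microtubules, differed by 1.94, and the mitotic kinases Aurkb by 1.60 and Plk1 by 1.34. Of 13 E2F, retinoblastoma family and mitotic transcription genes 10 rose, 2 were not called and 1 fell (median 0.68). That fall was not called after either rescaling or without γ+ replicate 2. E2f7, an E2F that represses its own family's targets, read 6.35, 6.30 and 6.50 against 8.71, 8.80 and 8.68. E2f1, an activating E2F, read 6.31, 6.41 and 6.05 against 7.16, 6.59 and 7.05. The E2f1 rise of 0.68 ± 0.14 was thus smaller and noisier than that of E2f7 (2.35 ± 0.08, SE, n = 3 per group), and E2f8 (2.25), Mybl2 (2.19) and Rb1 (0.70) rose too.

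Stretches around the start are shown for the 3 genes of these lists with the largest differences among named genes that held an E2F motif. The letters searched were TTTCCCGC, TTTGGCGC, TTTCGCGC and TTTGCCGC on both strands of the same windows, and no printed stretch goes past base 30 after the start.
Cdt1: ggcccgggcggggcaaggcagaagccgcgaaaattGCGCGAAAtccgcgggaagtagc
Mcm5: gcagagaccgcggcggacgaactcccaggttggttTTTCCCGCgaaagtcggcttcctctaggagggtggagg
Clspn: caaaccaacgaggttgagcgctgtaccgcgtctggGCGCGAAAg
Capitals again mark a match, and in Cdt1 and Clspn it lies on the strand opposite to the gene. The Cdt1 stretch is chr19:67529221-67529278 on the plus strand of GRCr8, with the match at bases 8 to 15 and another at 33 to 40 that is not printed. The Mcm5 stretch is chr19:13488770-13488842 on the plus strand, with the match at -8 to -1, and 2 more overlapping matches lie farther upstream. The Clspn stretch is chr5:144134623-144134666 on the plus strand, with the match at 22 to 29. Of 102 genes of the replication, E2F and mitosis lists with a window, 24 held such a motif (23.5%), against 4.02% of the windows of all genes tested and 2.14% of all windows.

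The cyclins and their kinases did not move as 1 group. Of 26, 20 rose, 3 fell and 3 were not called (median 0.77). Ccnd1, cyclin D1, which relays growth signals early in the cycle, read 9.70, 9.62 and 9.65 in the control and 7.71, 7.34 and 7.72 in the γ+ arrays. Cdk2, the partner of cyclin E, read 8.21, 8.19 and 8.19 against 10.30, 9.92 and 10.22. Cyclin D1 thus fell by 2.06 ± 0.08 while Cdk2 rose by 1.94 ± 0.08 (SE, n = 3 per group; limma adjusted p = 3.33e-12 and 2.84e-12). The other 2 members that fell were Ccnd2 (-1.24) and Cdk6 (-0.97), a further D-type cyclin and a kinase that D-type cyclins activate, and Ccne1, cyclin E1, rose by 2.15.

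Inhibitors of the cyclin-dependent kinases rose in 5 of 7 cases and fell in 2 (median 0.65). Cdkn1a, which encodes p21 and is a target of p53, read 9.81, 9.57 and 9.62 in the control and 11.15, 11.37 and 11.10 in the γ+ arrays. Cdkn1c, which encodes p57, read 6.15, 6.11 and 6.18 against 7.73, 7.67 and 7.60. Cdkn2b, which encodes the cyclin D-kinase inhibitor p15, read 8.42, 8.33 and 8.41 against 7.01, 6.79 and 6.64. Cdkn1a and Cdkn1c were higher by 1.54 and 1.52 on arrays that did not overlap, while Cdkn2b (-1.58) and its neighbour Cdkn2a (-0.72) were the members that fell.

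DNA damage, p53 and chromatin genes rose beside the replication genes. Of 35 genes of the DNA damage checkpoint and repair 30 rose, 4 were not called and 1 fell (0 after median centring; median 0.81). H2ax, the histone variant that marks DNA breaks, read 8.04, 8.03 and 7.95 in the control and 9.73, 9.84 and 9.74 in the γ+ arrays. Brca2 (1.97), Rad18 (1.93) and the checkpoint kinase Chek1 (1.47) were higher too. Of 24 genes of p53 and its targets 18 rose and 3 fell (median 0.31). Mdm2, the ligase that degrades p53, read 8.73, 8.85 and 8.59 against 9.99, 9.82 and 9.95, and the p53 target Tp53inp1 differed by 1.22. Of 24 genes of Polycomb, DNA methylation and chromatin 16 rose, 1 fell and 7 were not called (median 0.45). The gene that fell was Suv39h1, whose probe sets disagree and whose sign turned with the mean over them. Ezh2, the Polycomb methyltransferase, read 7.32, 7.22 and 7.40 against 8.84, 8.69 and 8.78. Uhrf1 (1.70), Hells (1.69) and Dnmt1 (1.43), which copy DNA methylation at the fork, rose as well.

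Ribosome biogenesis genes, which growing cells raise, rose too: 48 of 56 genes were higher, 1 was lower and 7 were not called, with a smaller median of 0.41. Gnl3, the nucleolar protein nucleostemin, read 7.34, 7.40 and 7.43 in the control and 8.40, 8.43 and 8.41 in the γ+ arrays. Nolc1 (0.94) and Nhp2 (0.92), which work in the nucleolus, and nucleolin, Ncl (0.54), rose by similar or smaller amounts. Polr1d, a subunit shared by RNA polymerases I and III, was the member that fell (-0.27).

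Antiviral effectors mostly rose. Cells that sense viral nucleic acid secrete interferon, which switches on a set of genes that block viral entry, copying and translation. Of 38 such effectors 32 rose, 5 fell and 1 was not called (median 0.92). Of the 32, 1 passed the low-level limit only through the γ+ arrays. Rsad2, the enzyme viperin that makes a chain-terminating nucleotide, read 6.81, 6.82 and 6.78 in the control and 9.69, 9.39 and 9.55 in the γ+ arrays. Ifit1, which binds foreign RNA ends, read 6.21, 6.27 and 6.23 against 8.61, 8.52 and 8.64. Isg15, a ubiquitin-like modifier, read 7.21, 7.49 and 7.17 against 9.46, 9.46 and 9.47. These groups were at least 1.9 log2 apart, with limma adjusted p = 4.7e-13 for Rsad2, 2.2e-13 for Ifit1 and 2.49e-12 for Isg15. Gbp5, an interferon-induced GTPase, read 7.09, 7.01 and 6.91 against 9.34, 9.23 and 9.27.

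The fallers were led by interferon-induced transmembrane proteins, which block virus entry. Ifitm1 read 9.05, 8.97 and 8.97 in the control and 7.37, 7.25 and 7.37 in the γ+ arrays. Ifitm2 read 9.01, 9.00 and 9.08 against 8.33, 8.35 and 8.34. The difference was -1.67 ± 0.07 for Ifitm1, -0.69 ± 0.08 for Ifitm2 (SE, n = 3 per group) and -0.62 for Ifitm3. Ifitm genes are close paralogs that probe sets may not fully separate.

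Stretches are shown for the 3 named antiviral genes with the largest absolute differences among those whose window held the interferon response motif, GAAANNGAA on either strand. Ifitm2 is among them although it fell.
Rsad2: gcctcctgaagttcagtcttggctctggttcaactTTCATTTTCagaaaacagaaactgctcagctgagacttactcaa
Gbp5: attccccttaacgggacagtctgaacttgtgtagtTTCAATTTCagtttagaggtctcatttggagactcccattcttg
Ifitm2: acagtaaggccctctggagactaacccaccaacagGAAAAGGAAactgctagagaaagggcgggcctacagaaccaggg
Capitals mark the match. The Rsad2 stretch is chr6:48788223-48788301 on the minus strand of GRCr8, with the match at -146 to -138. The Gbp5 stretch is chr2:233910909-233910987 on the plus strand, with the match at -55 to -47 and another at -159 to -151 that is not printed. The Ifitm2 stretch is chr1:205482338-205482416 on the minus strand, with the match at -33 to -25. Of 29 antiviral effectors with a window, 22 held the motif (75.9%), against 7.03% of the windows of all genes tested and 9.71% of all windows.

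Sensors and signalling genes of the interferon system split, with 12 of 25 higher and 10 lower (6 lower after median centring; median 0.24). Irf7, the factor that amplifies interferon production, read 7.59, 7.66 and 7.69 in the control and 9.68, 9.80 and 9.58 in the γ+ arrays. The RNA sensors Ifih1 (1.35) and Dhx58 (1.18) rose, and the endotoxin receptor Tlr4 (-0.75) and the interferon-γ receptor chain Ifngr1 (-0.68) fell. Of 17 genes of antigen processing and co-stimulation 10 rose, 2 fell and 5 were not called (median 0.43). Cd80, a co-stimulatory ligand of antigen-presenting cells, read 7.13, 6.89 and 7.02 against 9.48, 9.67 and 9.38. B2m, the light chain of class I molecules, was not called, at 11.83, 11.80 and 11.76 against 11.86, 11.69 and 11.79. The peptide-loading genes Tapbp (1.37) and Tap1 (0.98) rose. Over the same arrays the macrophage or leukocyte marker sum was lower in the γ+ group (9.22 to 9.34, against 9.76 to 9.81).

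Chemokines, cytokines and acute-phase proteins went mainly down: 16 of 24 fell, 5 rose and 3 were not called (median -0.47). Cxcl10, an interferon-induced chemokine, rose from 8.25, 8.40 and 8.34 to 10.75, 10.91 and 10.73. Lcn2, an iron-binding acute-phase protein, fell from 8.82, 8.84 and 8.66 to 6.74, 6.83 and 6.87. Il1rl1, the receptor for interleukin-33, fell from 8.79, 8.60 and 8.63 to 6.09, 5.76 and 6.05. The groups did not overlap for any of them, and adjusted p was 2.56e-14 for Cxcl10, 5.74e-12 for Lcn2 and 1.27e-13 for Il1rl1. Ptx3 (-1.82) and Ccl7 (-1.52) were lower, while Tnf (0.95), Ccl5 (0.91) and Il6 (0.47) were higher.

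**Figure D3:**
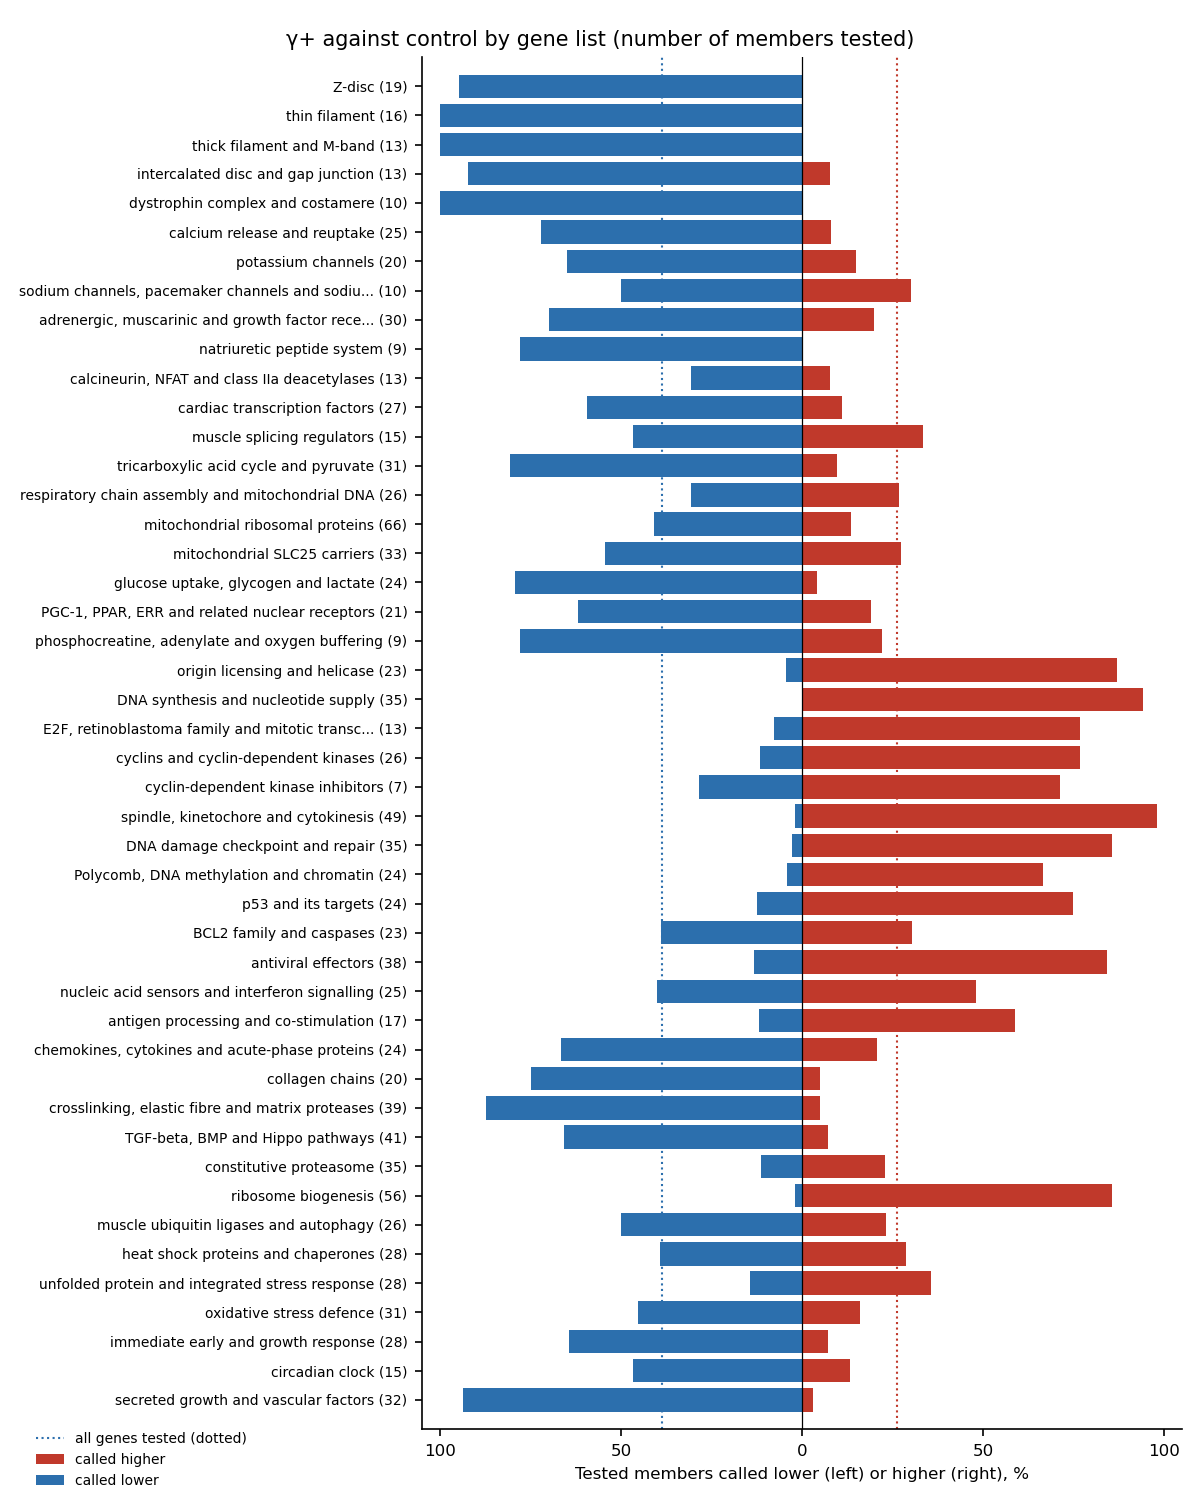
Share of tested members called lower (left) or higher (right) in the γ+ group, in percent, for each of the 46 gene lists, with dotted lines at the shares over all genes tested (38.7% lower, 26.2% higher). Contractile, matrix and secreted-factor lists extend to the left, and replication, mitosis, ribosome biogenesis and antiviral lists to the right.

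The extracellular matrix was lower. Of 20 collagen chains 15 fell, 4 were not called and 1 rose (2 after rescaling; median -0.55). Col1a1, the main fibrillar chain, read 11.51, 11.48 and 11.50 in the control and 9.82, 9.82 and 9.76 in the γ+ arrays. Col3a1, its partner in compliant tissue, read 9.87, 9.86 and 9.83 against 7.89, 7.47 and 7.86. Both fell without overlap, with differences of -1.69 and -2.11. Of 39 genes of crosslinking, elastic fibres and matrix proteases 34 fell and 2 rose (median -0.86). Thbs1, the matrix protein thrombospondin 1, read 11.55, 11.57 and 11.51 against 9.32, 9.15 and 9.33. Lox, the enzyme that crosslinks collagen and elastin, read 10.32, 10.31 and 10.31 against 8.33, 8.42 and 8.26. These falls went with a fibroblast marker sum of 11.63 to 11.73 in the γ+ arrays against 13.05 to 13.08 in the control, and the part of that shift was not tested. Col1a1, Col1a2, Postn and Mfap5 belong both to that sum and to these matrix lists, so the sum is not independent of the falls.

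Signals that act on matrix and growth fell too. Of 41 genes of the TGF-β, BMP and Hippo pathways 27 fell, 11 were not called and 3 rose, and the count of risers was 6 after median centring, 7 after quantile normalization and 5 without γ+ replicate 2 (median -0.35). Ccn2, the connective tissue growth factor that reports TGF-β and YAP activity, read 10.42, 10.58 and 10.45 in the control and 8.65, 8.28 and 8.66 in the γ+ arrays. Tgfb3 (-1.76) and Inhba (-1.66) fell, Tgfb1 was not called, and Tead2 (0.61) and Yap1 (0.23) rose. Of 32 secreted growth and vascular factors 30 fell, 1 rose and 1 was not called (median -0.83). Igf1, insulin-like growth factor 1, read 8.52, 8.50 and 8.53 against 5.81, 5.92 and 5.97. Edn1, the vasoconstrictor endothelin 1, read 8.37, 8.33 and 8.32 against 5.70, 5.54 and 6.01. Every γ+ array was more than 2 log2 below the control for both, and Hbegf (-1.85) and Vegfa (-0.84) were lower as well. Fgf2 was among 3 of the 30 fallers with γ+ means below the low-level limit (6.11 against 4.62).

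Immediate early and growth response genes, which report signalling through MAP kinases, fell in 18 of 28 cases and rose in 2 (median -0.36). Dusp4, a MAP kinase phosphatase, read 8.68, 8.67 and 8.70 in the control and 6.84, 6.47 and 6.75 in the γ+ arrays. Klf5, a growth-related zinc finger factor, rose from 7.88, 7.88 and 7.80 to 8.82, 9.22 and 8.96. Dusp6 (-1.69), Dusp1 (-1.40), Klf2 (-1.34) and Myc (-0.97) fell.

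The other virus groups place these levels. Against the γ- group, whose cells also received adenovirus, 6433 genes were called in the γ+ group (64.2%), and against the 23/24 group 6599 (65.8%). These comparisons share the γ+ arrays with the comparison against control and, like it, were set across the apparent normalization runs. The median of every gene list lay within 0.20 log2 of the control in the γ- and 23/24 groups. Csrp3 read 12.16, 12.12 and 12.15 in the γ- arrays and 12.20, 12.27 and 12.29 in the 23/24 arrays, beside 9.30, 9.24 and 9.31 in the γ+ arrays. Mcm5 read 8.13, 8.12 and 8.29 in the γ- arrays and 8.17, 8.31 and 8.34 in the 23/24 arrays, beside 10.20, 10.23 and 10.25. Both groups overlapped the control range or lay within 0.2 log2 of it, and the γ+ group differed from the γ- group by -2.86 for Csrp3 and by 2.05 for Mcm5 (limma adjusted p = 7.38e-17 and 2.76e-13).

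Cdkn1a was measured in all 4 groups. It read 10.21, 10.17 and 10.20 in the γ- arrays and 10.06, 10.04 and 10.01 in the 23/24 arrays, all above the control arrays (9.81, 9.57 and 9.62) and below the γ+ arrays. The γ+ group was 1.01 higher than the γ- group (adjusted p = 2.54e-09). Against control, Cdkn1a was higher in the γ- group by 0.53 (limma adjusted p = 0.000822), a comparison with 696 genes called (6.94%). Its difference of 0.37 in the 23/24 group did not pass (adjusted p = 0.209), and limma called 0 genes there (0%), with 899 at an unadjusted p under 0.05. By their equal values the 23/24 arrays appear to have been normalized with the control arrays, and the γ- arrays apart from them. Treatment and run therefore cannot be told apart in the γ- comparison, and its count of calls is not comparable with that of 23/24. For the antiviral effectors, the median difference from control was 0.19 in γ-, 0.05 in 23/24 and 0.92 in γ+ cultures, and 31 of the 38 were higher and 4 lower in the γ+ than in the γ- group.

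**Figure D4:**
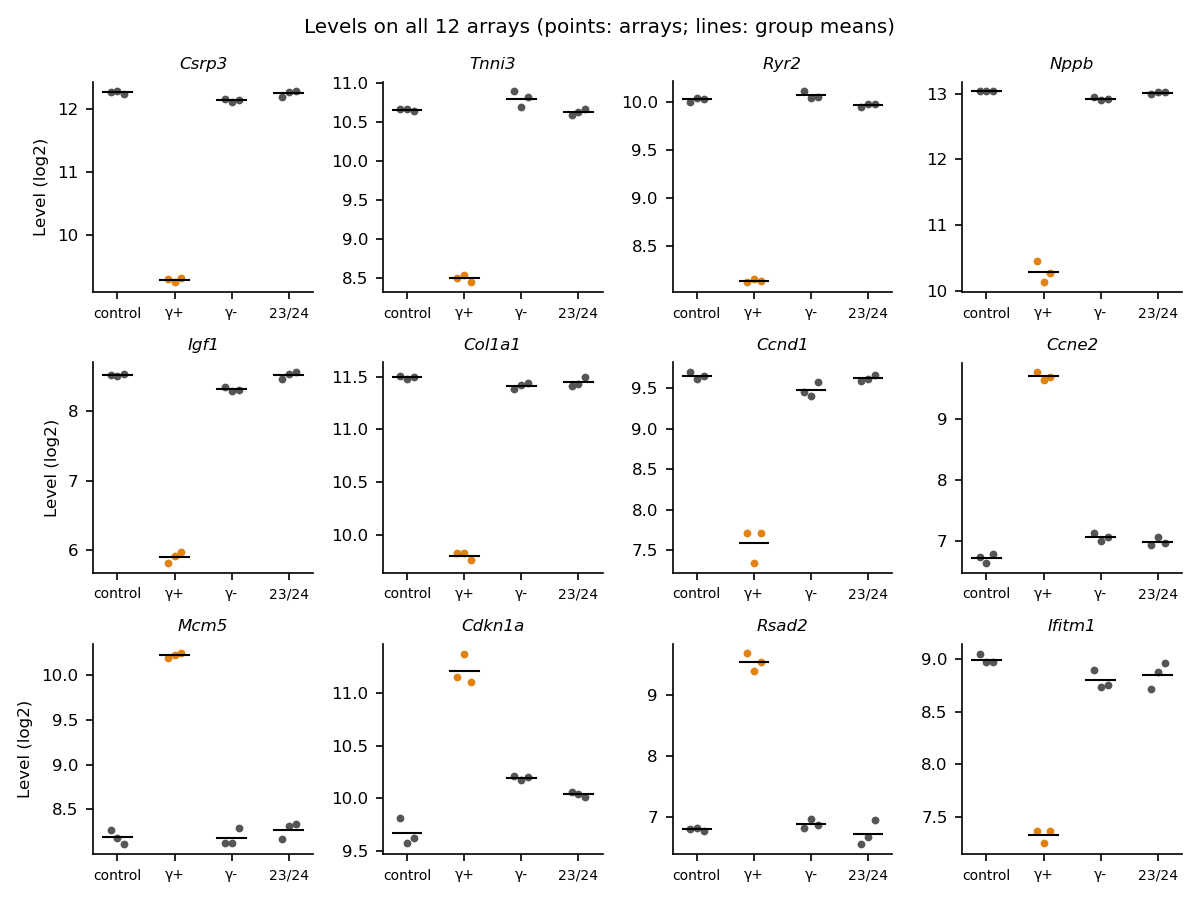
Array values (log2, y axis) of 12 genes in the control, γ+, γ- and 23/24 groups, 1 point per array and 3 arrays per group. The γ+ arrays stand apart from the other 3 groups in every panel, below them for Csrp3, Nppb and Igf1 and above them for Ccne2, Mcm5 and Rsad2. All 12 were picked among genes called between γ+ and control, so their separation from the control follows from that choice.

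The shares of promoters that hold each motif were also counted over all genes tested. An E2F motif was in 7.79% of the windows of genes that rose, in 2.66% of those that fell and in 2.56% of those not called, and in 17.7% of the 265 windows of genes that rose by at least 1 log2. The MEF2 shares were close, at 1.37% of genes that rose, 1.73% of those that fell and 1.09% of those not called. So were the interferon shares, at 8.02%, 6.34% and 7%. Among larger differences, a MEF2 motif was in 4.41% of the 454 windows of genes that fell by at least 1 log2 and in 1.89% of those that rose as much. The interferon response motif was in 14.3% of the windows of genes that rose by at least 1 log2 and in 5.29% of those that fell as much. Windows were at hand for 8308 of the 10025 genes, and these shares are a description with no test.

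**Figure D5:**
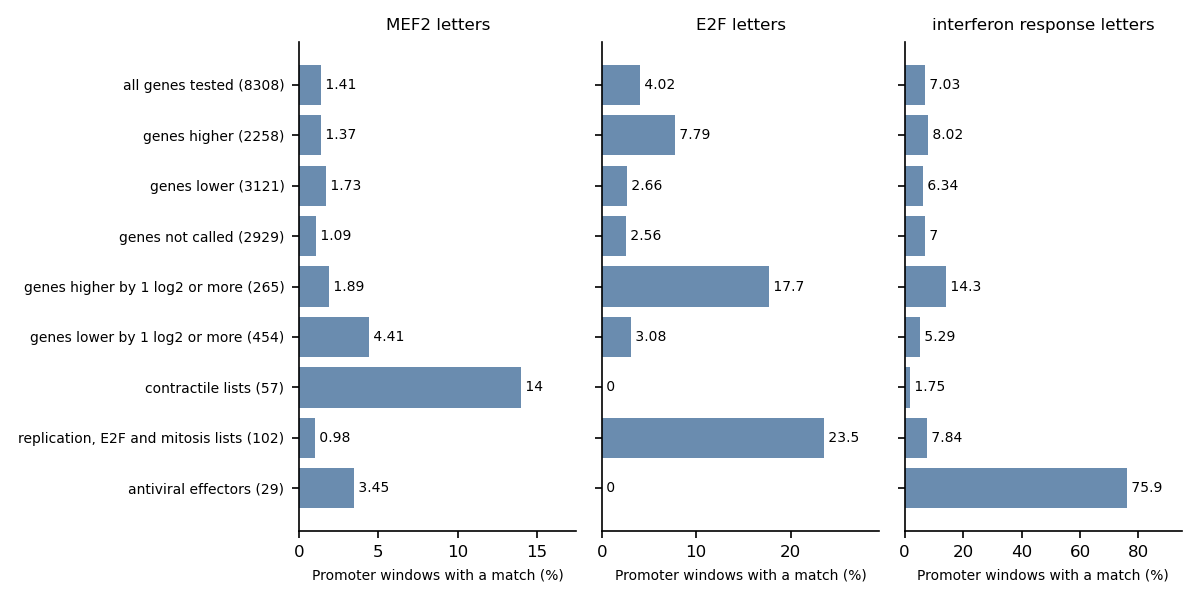
Percent of promoter windows (x axis) that hold a MEF2, an E2F or an interferon response motif, in 3 panels, by set of genes (rows: all tested, called higher, lower or not called, larger differences, and gene lists, with the number of windows). The E2F share is highest in the replication, E2F and mitosis lists (23.5%) and the interferon share in the antiviral effectors (75.9%).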

How the data were processed

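Total RNA of 12 cultures was hybridised to whole-transcript Affymetrix rat gene arrays, 1 array per culture. The values used are the log2 values deposited by the authors in 1 table. Per the submitters' processing notes MAS5 is the tool named, with no version. The background correction, the probe summary, the log base and the scaling between arrays were not given in the sources used here. The range of 1.09 to 13.89 is that of log2 intensities. With arrays, their number limits the precision.

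A probe table named 1 gene for 15209 probe sets, several for 306 and none for 13311. Symbols were updated through Entrez identifiers (15178 matched) in the RefSeq GRCr8 table. The 17295 probe sets whose 12-array mean exceeded the 40th percentile (log2 4.78) were kept, and the brightest single-gene probe set stood for each gene. Of 244 called genes with several kept probe sets, 216 had the same sign on all of them (88.5%).

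limma 3.58.1 in R 4.3.3 fitted 4 group means over the 12 arrays (8 residual degrees of freedom, eBayes with an intensity trend), with Benjamini-Hochberg adjustment over all 10025 genes. Each SE given for a difference is limma's moderated value from this fit, so it draws on all 12 arrays. The procedure was also tried on simulated arrays with independent noise, few changed genes and no separate normalization. These differ from the present arrays, so that trial cannot vouch for the calls made here. Promoter sequences come from RefSeq (GRCr8).

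The 46 gene lists (1445 genes, 1208 on the array, 1167 tested) and 8 marker lists were chosen with earlier results of these data known. Genes named are the 15 largest rises and falls among called genes whose groups did not overlap, leaving out placeholder symbols. They also include the first 4 genes of each list and up to 4 called members of largest difference in each direction, the other MEF2 genes and the markers. Alternatives were median centring, quantile normalization, other filters, the mean over probe sets, no intensity trend, array weights, a block for replicate number, a fit of only the 6 arrays compared, a minimum fold, and leaving out each array.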

Additional observations from a re-analysis of the deposited data

How the results depend on the processing

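The counts of genes called, higher or lower in the γ+ group against the control, the γ- group or the 23/24 group stayed within 1.5 times their values under all alternatives but a minimum difference of 1 log2. Under that minimum (limma's treat), 516 genes were called against the control (169 higher, 347 lower), 467 against the γ- group (150 and 317) and 489 against the 23/24 group (176 and 313). Leaving out 1 array gave 6005 to 6682 calls against the control (2392 to 2852 higher, 3566 to 3830 lower), 5946 to 6641 against the γ- group (2417 to 2937 and 3445 to 3704) and 6069 to 6859 against the 23/24 group (2533 to 3091 and 3486 to 3768). With a replicate block 6401 genes were called against the control (2576 higher, 3825 lower), and same-numbered arrays correlated at -0.223 to 0.124, so the numbers were not treated as pairs. Of 440 named genes in the fit, 417 were called. Of the named genes, 32 lost their call under at least 1 alternative other than the fold minimum, 251 lost it under that minimum, and 12 gained one. The sign turned for B2m with quantile normalization (0.15, against -0.02), for Psma1 with array weights (0.13) or without γ+ replicate 2 (leaving out each array gave -0.09 to 0.15, against -0.01), and for Suv39h1 with the mean over its probe sets (0.32, against -0.45), whose probe sets disagree. Psma1 and B2m were not called. The causes of these turns were not tested. List counts that moved by over 1.5 times with scaling are given beside the lists. Proteasome risers went from 8 to 15 and heat shock risers from 8 to 13 with quantile normalization, and the 4 proteasome fallers to 1 under both rescalings. An apparent separate normalization run for the γ+ arrays limits every comparison, and 3 arrays a group limit the precision.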

Other observations

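Genes of protein quality control and survival moved in both directions. Of 35 constitutive proteasome genes 23 were not called, 8 rose and 4 fell (median 0.03), counts that depend on array scaling. Of 28 heat shock proteins and chaperones 8 rose (28.6%) and 11 fell (39.3%), with a median of 0.00. These shares were near those of all genes tested (26.2% higher and 38.7% lower). Hspb1, a small heat shock protein of muscle, read 10.42, 10.44 and 10.46 in the control and 8.57, 8.35 and 8.64 in the γ+ arrays. Hsp90aa1, the inducible HSP90, rose from 10.93, 10.87 and 10.86 to 11.73, 11.66 and 11.71. Both differences held on every array, at -1.92 ± 0.07 for Hspb1 and 0.82 ± 0.05 for Hsp90aa1 (SE, n = 3 per group). Of 28 unfolded protein and integrated stress response genes 14 were not called, 10 rose and 4 fell. Of 26 muscle ubiquitin ligases and autophagy genes 13 fell and 6 rose. Asb2, a muscle ligase subunit that targets filamins, read 9.24, 9.29 and 9.24 against 6.31, 6.50 and 6.47. The atrophy ligase genes Fbxo32 and Trim63 went apart, with differences of -1.10 and 0.23. Of 23 BCL2 family and caspase genes 9 fell (39.1%), 7 rose (30.4%) and 7 were not called, shares also near those of all genes tested. The survival factor Bcl2 read 9.99, 9.89 and 10.10 against 8.72, 9.36 and 8.61.

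Oxidative stress and clock genes fell in shares near that of all genes tested (38.7%). Of 31 oxidative stress genes 14 fell (45.2%), 5 rose and 12 were not called (median -0.19). Sod3, the extracellular superoxide dismutase, read 9.95, 9.76 and 9.80 in the control and 7.46, 8.16 and 7.40 in the γ+ arrays, with replicate 2 above the others (difference -2.16, and -2.40 without it). Nqo1 (-1.46) and Gstp1 (-1.35), detoxifying enzymes, were lower too. Of 15 clock genes 7 fell (46.7%), 2 rose and 6 were not called. Per2, a negative arm of the clock, read 6.84, 6.85 and 7.09 against 5.80, 5.86 and 5.94. Nr1d2, a clock repressor, rose from 7.99, 7.95 and 7.99 to 8.41, 8.54 and 8.38.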
